A study of Xenopus laevis with 5 samples.

Results

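Chromatin regulators, the genes whose proteins package DNA, mark histones or methylate DNA, were followed across 5 Affymetrix arrays of Xenopus laevis ectodermal explants. The members were the probe sets whose single platform gene symbol begins with the name of a gene family listed next. The Polycomb names were ezh, eed, suz12, pcgf, ring1, rnf2, phc and scmh. The cbx family held the Polycomb gene cbx2 and the genes of heterochromatin protein 1. Histone demethylases (kdm) and methyltransferases (kmt and setd), deacetylases (hdac and sirt) and DNA methyltransferases (dnmt) were included. So were remodelling ATPases and their partners (smarc and chd), bromodomain proteins (brd) and the ing family. The members came to 75 of 15490 probe sets and 61 of 7530 genes. Of these genes 50 had 1 probe set and 11 had 2 or more, and no filter on low values was applied, so all 61 were measured and tested.

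In 2 samples the embryos had received a hormone-inducible zic1, and in 3 control samples beta globin, both given at the stage of 2 cells and both with noggin, a BMP inhibitor that makes the ectoderm take a neural fate. The explants were excised at stage 9 and grown to the equivalent of stage 12. All 5 samples then had cycloheximide for 30 min, which stops protein synthesis, and dexamethasone for a further 3 h, which releases the inducible zic1 protein, a zinc-finger regulator of neural plate border genes. The design addresses which transcripts change without new protein. Noggin, cycloheximide and dexamethasone were given to both groups, and whether they acted alike in both was not tested. What the injected zic1 did ahead of the block cannot be told apart from what it did afterwards. The labels call the arrays biological replicates and give no embryo batch or day. The p-values rest on the spread of the arrays within each group, which may be partly technical. They also rest on a spread that limma borrows from all features. It counted for 2.59 degrees of freedom for genes and 2.29 for probe sets, beside 3 residual ones.

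Each value is the ratio of a probe set's level to its own median over the 5 arrays, so a ratio of 1 is that median. Only differences between arrays can be read, and neither the presence of a transcript nor its level against another can be. Zic1.S, which shares the name of the injected gene, had 2 probe sets. The first read 5.28 and 5.07 in the zic1 arrays against 0.699 to 1.00 in the controls, and the second 1.68 and 1.76 against 0.815 to 1.00. In explants fewer cells of a type and less RNA per cell cannot be told apart. Mean log2 ratios of neural marker genes (4 of 5 listed markers, 7 genes) were 0.35 and 0.31 in the zic1 arrays and -0.24 to -0.03 in the controls. Those of mesoderm and muscle markers (7 of 9 listed, 9 genes) were 0.70 and 0.86 against -0.30 to 0.05, and those of epidermal markers (5 of 8 listed, 6 genes) -0.57 and -0.06 against -0.25 to 0.29. Endoderm markers (6 of 8 listed, 11 genes) stood at 0.81 in control replicate 3 and between -0.35 and -0.02 elsewhere, and cement gland markers (4 of 5 listed, 7 genes) at 0.67 in control replicate 2 and between -0.49 and -0.02 elsewhere. The neural markers included zic2.L and zic2.S, of the same gene family as the injected zic1. Of the neural genes 1 and of the mesoderm and muscle genes 3 were called higher, and 2 cement gland genes lower (adjusted p under 0.05, limma). The part of the cell types named here in the values below was not tested.

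Polycomb proteins act in 2 complexes. Polycomb repressive complex 2 places methyl groups on histone H3, and Polycomb repressive complex 1 binds that mark, attaches ubiquitin to histone H2A and compacts the chromatin. They keep developmental genes silent outside their proper tissue. DNA methyltransferases, histone deacetylases and heterochromatin proteins also favour silencing, whereas SWI/SNF and chromodomain remodellers move nucleosomes and bromodomain proteins bind acetylated histones at active genes. In vertebrate embryos several of these factors are needed for the neural plate and the neural crest.

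Of the 61 genes 4 passed an adjusted p of 0.05 in the comparison of zic1 with control explants, which is 6.56% of them, where 1.93% of all 7530 genes did (limma on the mean log2 ratio per gene, Benjamini-Hochberg adjustment over all 7530 genes). Dnmt1.S and kdm3a.L were higher, beside a background of 1.26% called higher, and scmh1.S and sirt5.L were lower, beside 0.664% called lower. At the level of single probe sets 3 of 75 passed, against a background of 1.41%; these were the probe sets of dnmt1.S and kdm3a.L and 1 of scmh1.S, while that of sirt5.L just missed (adjusted p = 0.0508, limma). At an unadjusted p under 0.05 the members did not stand apart with both directions counted together, with 14 of 61 genes (23.0%) beside 22.7% of all genes. By direction, 9 of the members were higher and 5 lower, beside 682 higher and 1029 lower of all 7530 genes (limma, gene means). Every call was lost when either zic1 array was left out: without zic1 replicate 1 or zic1 replicate 2 limma called 0 of the 15490 probe sets, with 1467 and 2483 at an unadjusted p under 0.05. Of the 4 genes 0 passed without control replicate 1 or without control replicate 2, and dnmt1.S and scmh1.S passed without control replicate 3.

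**Figure D1:**
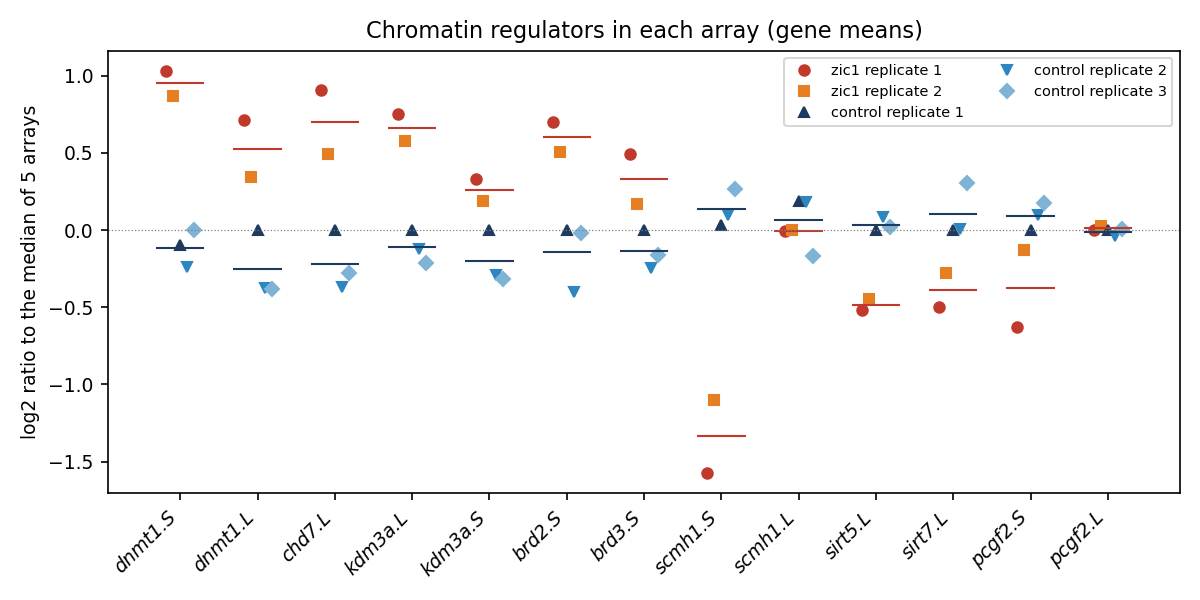
Log2 ratio to the median of the 5 arrays (y axis) for 13 chromatin regulator genes (x axis), with a symbol for each array and lines at the mean of the 2 zic1 arrays (red) and the 3 control arrays (blue). The zic1 arrays lie above all controls for dnmt1, chd7.L, kdm3a, brd2.S and brd3.S and below them for scmh1.S, sirt5.L, sirt7.L and pcgf2.S, while the groups overlap for scmh1.L and pcgf2.L.

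Polycomb repressive complex 1 held the deepest fall. Scmh1 encodes a Polycomb protein related to fly Sex comb on midleg, which associates with complex 1. Averaged over its 2 probe sets, scmh1.S read 0.336 and 0.467 in the zic1 arrays against 1.02, 1.07 and 1.21 in the controls. The zic1 arrays were both far below every control. The level was 2.77-fold lower (95% interval 2.09 to 3.67), a log2 difference of -1.47 ± 0.16 (SE; adjusted p = 0.0271, limma, 2 zic1 and 3 control arrays). Its first probe set read 0.256 and 0.350 against 1.00, 1.15 and 1.11 and fell by 1.86 on the log2 scale (adjusted p = 0.0252, limma). The second read 0.440 and 0.623 against 1.04, 1.00 and 1.31, a difference of -1.08 that did not pass (adjusted p = 0.0685, limma), though its groups did not overlap either.

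A further probe set, which the platform assigns to both scmh1.L and scmh1.S and which is therefore no member, read 0.708 and 0.665 in the zic1 arrays against 1.00, 1.06 and 1.02 in the controls. It fell by 0.58 (adjusted p = 0.0416, limma). The 1 probe set of the scmh1.L copy alone read 0.995 and 1.00 against 1.14, 1.14 and 0.889, so its groups overlapped, and it differed by -0.07 ± 0.13 (adjusted p = 0.802, limma). Xenopus laevis carries its genome as paired subgenomes, and .L and .S mark the 2 copies of a gene, which can share signal on short probes.

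Of the other genes of complex 1, 0 passed. Among them pcgf2.S alone had an unadjusted p under 0.05 (limma, gene means), beside 22.7% of all genes. Pcgf2 encodes a RING-finger partner of the ubiquitin ligases. Pcgf2.S read 0.647 and 0.915 in the zic1 arrays against 1.00, 1.07 and 1.13 in the controls, below them in both arrays but with the zic1 arrays far from each other, and differed by -0.47 ± 0.16 (adjusted p = 0.166, limma). That difference was -0.22 without zic1 replicate 1 and -0.72 without zic1 replicate 2. Pcgf2.L read between 0.972 and 1.02 in all 5 arrays and differed by 0.02 ± 0.07. Pcgf1.L, of the same family, differed by -0.06 ± 0.08.

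The ubiquitin ligases themselves are ring1 and rnf2. Ring1.L read 0.965 and 1.06 against 0.886, 1.00 and 1.73, so that control replicate 3 alone stood high; the difference of -0.19 ± 0.29 became 0.11 without that array. Rnf2.L differed by 0.06 ± 0.08. Cbx2.L, whose chromodomain reads the methyl mark of complex 2, differed by 0.18 ± 0.10. Phc2.L, a polyhomeotic protein that joins complexes into larger bodies, read 1.12 and 1.03 against 0.721, 0.815 and 1.00, with no overlap, and differed by 0.36 ± 0.15 (adjusted p = 0.240, limma).

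Of the 4 complex 2 genes among the members, 0 passed the threshold, beside 1.93% of all genes. At an unadjusted p under 0.05 (limma, gene means) stood 0 of the 4, beside 22.7% of all genes. So few genes cannot show whether the complex differed from other genes. Rbbp4.L, also of complex 2, lies outside the family names and is given below. Ezh2.L, the enzyme that methylates histone H3, read 1.12 and 1.02 against 0.946, 0.973 and 1.00 and differed by 0.13 ± 0.08. Eed, which binds the finished mark, differed by -0.02 ± 0.10 for eed.L and -0.10 ± 0.08 for eed.S. Suz12, the scaffold of the complex, differed by -0.15 ± 0.18, and its groups overlapped. The 95% intervals of the fold, zic1 over control, ran from 0.951 to 1.27 for ezh2.L and from 0.662 to 1.23 for suz12. Over the 13 Polycomb genes the median log2 difference was -0.06, with 5 above 0 and 8 below, beside a median of -0.03 over all 7530 genes.

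DNA methylation was represented by both copies of dnmt1, the enzyme that copies methylation onto new DNA strands after replication. Dnmt1.S read 2.04 and 1.83 in the zic1 arrays against 0.934, 0.846 and 1.00 in the controls. Both zic1 arrays stood far above the highest control. It was 2.09-fold higher (95% interval 1.74 to 2.52), a log2 difference of 1.06 ± 0.11 (adjusted p = 0.0222, limma), the largest rise among the 61 genes. Dnmt1.L read 1.64 and 1.27 against 1.00, 0.771 and 0.768, also without overlap, and differed by 0.78 ± 0.17 without passing (adjusted p = 0.0802, limma).

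Among the demethylases, kdm3a takes repressive methyl groups off histone H3. Kdm3a.L read 1.68 and 1.49 in the zic1 arrays against 1.00, 0.920 and 0.862 in the controls. The arrays of each group lay close together and the groups did not overlap. It was 1.71-fold higher (95% interval 1.43 to 2.05), a log2 difference of 0.77 ± 0.10 (adjusted p = 0.0375, limma). Kdm3a.S, from 2 probe sets that lay at 0.36 and 0.57, read 1.26 and 1.14 against 1.00, 0.818 and 0.803 and differed by 0.46 ± 0.13 (adjusted p = 0.114, limma). Kdm2b.L, which brings a variant of Polycomb complex 1 to unmethylated CpG islands, differed by 0.13 ± 0.14 with overlapping groups. The remaining demethylases of histone H3, kdm1a.S, kdm6a.S and kdm7a.S, lay between -0.03 and 0.04.

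The histone methyltransferases had 0 of 7 genes past the threshold, with differences from -0.30 to 0.05. Of the 7, kmt5b.L alone had an unadjusted p under 0.05 (limma, gene means), beside 22.7% of all genes. Kmt5b adds further methyl groups to histone H4 after kmt5a has placed the first. Kmt5b.L read 0.899 and 0.887 against 1.00, 1.08 and 1.00 and differed by -0.20 ± 0.08 (adjusted p = 0.215, limma), and kmt5b.S by -0.03 ± 0.08. Kmt5a.S differed by -0.30 ± 0.18 and kmt5a.L by 0.02 ± 0.17, a sign that turned to -0.02 after quantile normalization and to -0.14 without control replicate 3. Setd6.L, a methyltransferase that also acts on proteins other than histones, differed by -0.11 ± 0.09.

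Deacetylases and sirtuins lay on both sides of their controls. Of their 12 genes 6 lay above 0 and 6 below, and 1 passed. At an unadjusted p under 0.05 (limma, gene means) 2 of the 12 were higher and 2 lower, beside 682 higher and 1029 lower of all 7530 genes. Sirt5 removes succinyl and related groups from mitochondrial proteins, so its main known role lies outside chromatin. Sirt5.L read 0.699 and 0.733 in the zic1 arrays against 1.00, 1.06 and 1.01 in the controls. Both groups were tight and well apart, and the level was 1.43-fold lower (95% interval 1.25 to 1.64; log2 difference -0.52 ± 0.08, adjusted p = 0.0462, limma). Sirt7.L, a deacetylase of the nucleolus, read 0.709 and 0.823 against 1.00, 1.01 and 1.23, without overlap, and differed by -0.49 ± 0.13 (adjusted p = 0.112, limma). Sirt4.L, also mitochondrial, read 1.26 and 1.07 against 0.964, 0.880 and 0.980 and differed by 0.31 ± 0.11 (adjusted p = 0.172, limma). Sirt3.2.L, chosen after its values were seen, read 1.18 and 1.07 against 0.783, 1.00 and 0.919, without overlap. It differed by 0.33 ± 0.13 (adjusted p = 0.205, limma).

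The classical deacetylase (hdac) genes ranged from -0.24 for hdac1.L to 0.35 for hdac10.L. Of them 0 passed, and 0 reached an unadjusted p under 0.05 (limma, gene means), beside 22.7% of all genes. These hdac genes, and sirt2.S below, were chosen after their values were seen. Hdac1.L is among the members described below as carrying little information. Sirt2.S read 1.00 and 0.921 in the zic1 arrays against 0.468, 1.00 and 1.30 in the controls and differed by 0.18 ± 0.42. Control replicate 1 stood low there, and the groups overlapped.

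Both chromodomain helicases and all 3 bromodomain genes were above their controls in every zic1 array, as were 17.3% of all genes. Of the 5, 0 passed the threshold. At an unadjusted p under 0.05 (limma, gene means) 3 of the 5 were higher, beside 682 of all 7530 genes. Chd7 is a remodeller required for the neural crest, whose human gene is mutated in CHARGE syndrome. Averaged over 3 probe sets, chd7.L read 1.88 and 1.41 in the zic1 arrays against 1.00, 0.774 and 0.823 in the controls. The difference was 0.92 ± 0.17 (adjusted p = 0.0657, limma), 1.89-fold with a 95% interval from 1.40 to 2.54. Its probe sets gave 1.03, 0.95 and 0.77, each without overlap of the groups. Chd4.L, the ATPase of the NuRD complex, read 1.21 and 1.04 against 0.919, 0.820 and 1.00 and differed by 0.30 ± 0.12 (adjusted p = 0.224, limma).

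Brd2 and brd3 belong to the BET proteins, which bind acetylated histones and assist transcription. Brd2.S read 1.62 and 1.42 in the zic1 arrays against 1.00, 0.758 and 0.988 in the controls and differed by 0.74 ± 0.15 (adjusted p = 0.0740, limma). Brd3.S read 1.41 and 1.12 against 1.00, 0.842 and 0.894 and differed by 0.47 ± 0.13 (adjusted p = 0.119, limma). In both genes zic1 replicate 1 was the higher of the zic1 arrays. Brd7.L, a subunit of a SWI/SNF complex and no BET protein, differed by 0.16 ± 0.08.

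The smarc genes encode parts of SWI/SNF and related remodellers. The 8 of them ranged from -0.26 to 0.19, and the median was 0.01. Within 0.2 of 0 lay 6 of the 8, beside 4525 of all 7530 genes. At an unadjusted p under 0.05 (limma, gene means) stood 0 of the 8, beside 22.7% of all genes, and 0 passed. In 3 of their 11 probe sets, of smarcb1.S and smarcc2.L, the arrays held repeated values. These are described below and do not show a constant transcript. Smarcc1.L, a core subunit, differed by -0.26 ± 0.15, with control replicate 1 high at 1.34. Smarce1.L, another subunit, read 0.961 and 0.920 against 1.00, 1.10 and 1.17 and differed by -0.21 ± 0.10 (adjusted p = 0.276, limma). Smarca2.L, one of the alternative ATPases of SWI/SNF, read 1.04 and 1.02 against 1.00, 0.875 and 0.846 and differed by 0.19 ± 0.10.

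Heterochromatin protein 1, encoded by cbx1, cbx3 and cbx5, binds methylated histone H3 in silent chromatin. Its 4 genes lay between -0.14 for cbx5.S and 0.10 for cbx3.L, and cbx3.S differed by -0.13 ± 0.11. A probe set shared by both cbx3 copies, which is no member, differed by -0.04 ± 0.08. The ing proteins guide acetylases and deacetylases to methylated histone H3. They ranged from -0.23 ± 0.11 for ing2.L to 0.18 ± 0.09 for ing5.L, with ing3.L at 0.11 ± 0.12, and a probe set shared by ing5.L and ing5.S differed by 0.03. In both families 0 genes passed, and 0 reached an unadjusted p under 0.05 (limma, gene means), beside 22.7% of all genes.

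**Figure D2:**
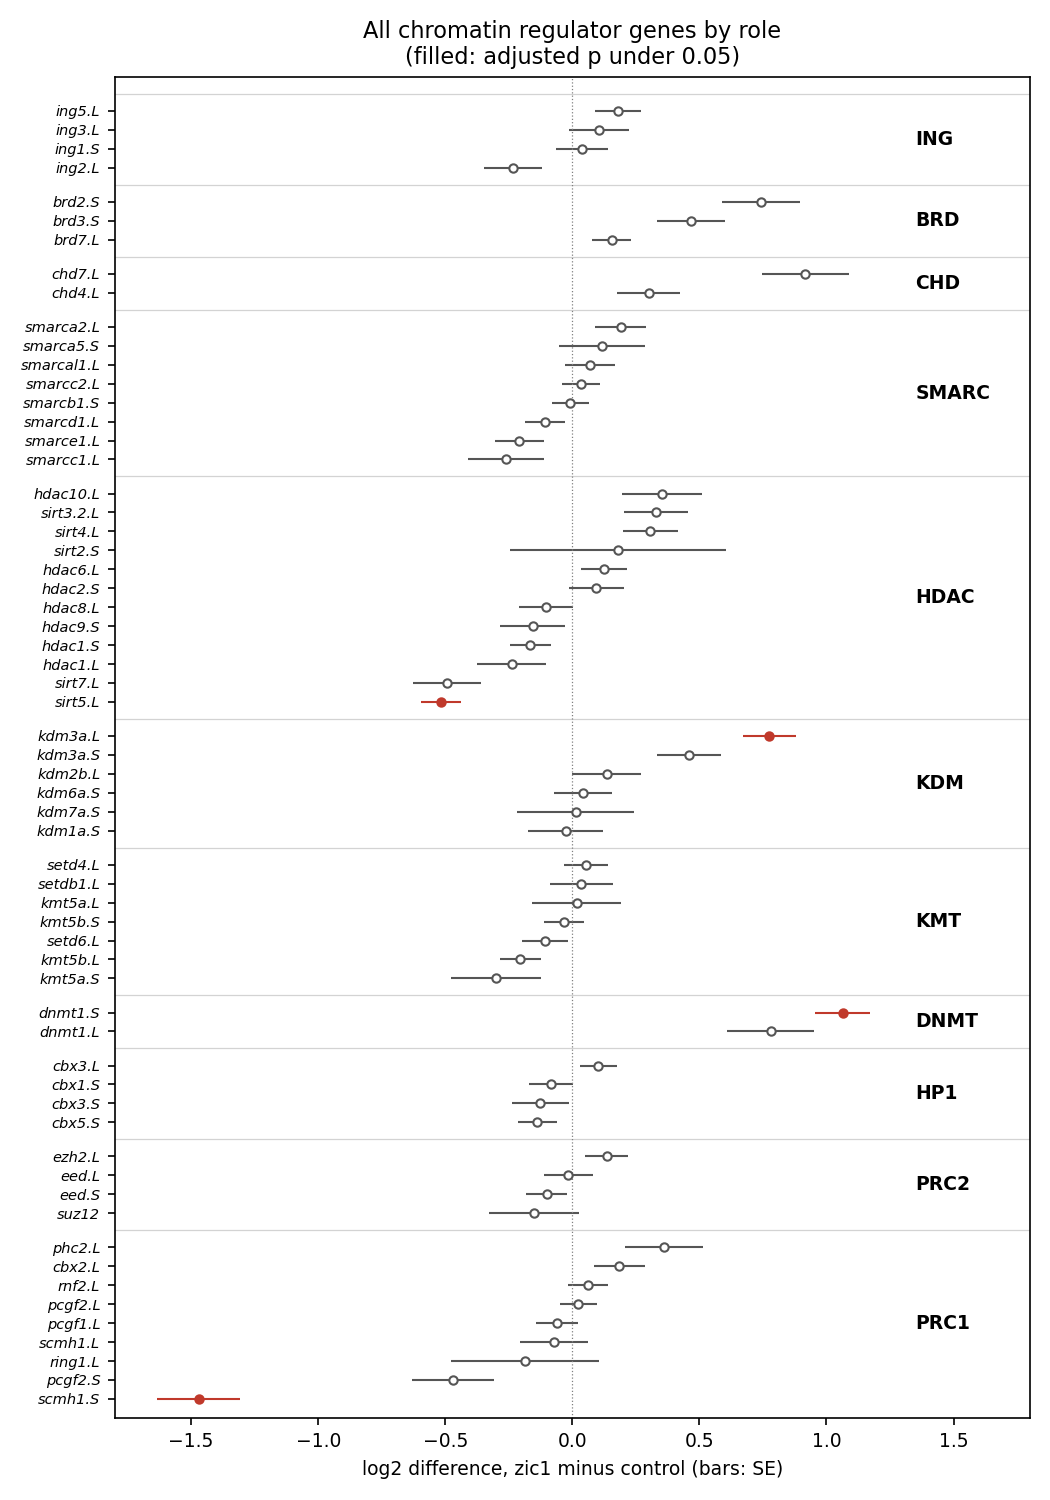
Log2 difference, zic1 minus control, with its SE (x axis) for all 61 chromatin regulator genes, grouped by role. PRC1 and PRC2 are the Polycomb complexes, HP1 heterochromatin protein 1, DNMT DNA methyltransferases, KMT and KDM histone methyltransferases and demethylases, HDAC deacetylases and sirtuins, and SMARC, CHD, BRD and ING the families of those names. Filled points passed an adjusted p of 0.05. Most genes lie within 0.2 of 0 (39 of 61, beside 4525 of all 7530 genes). Scmh1.S at -1.47 and dnmt1.S at 1.06 are the extremes.

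The size of the differences among chromatin regulators was close to that of all genes. The median absolute log2 difference was 0.150 over the 61 genes and 0.150 over all 7530. The median signed difference was 0.03 beside -0.03, and 34 of 61 members (55.7%) lay above 0 beside 43.9% of all genes. In 20 members (32.8%) both zic1 arrays exceeded all controls, beside 17.3% of all genes, and in 12 (19.7%) both were below all controls, beside 24.8%. Together the groups did not overlap in 52.5% of the members and in 42.1% of all genes. These shares describe the list, and no test was run over it. Among the 20 genes above all controls, zic1 replicate 1 was the more extreme zic1 array in 19. Among the 12 below it was so in 5. The like shares over all genes were not counted. Over all 7530 genes the median absolute log2 ratio was 0.092 in zic1 replicate 1 and 0.050 in zic1 replicate 2.

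Where several probe sets measure 1 gene, they served as a check on its direction. The probe sets of scmh1.S, chd7.L, kdm3a.S, sirt4.L, hdac1.S, cbx1.S and smarcd1.L each pointed 1 way within their gene. Those of setdb1.L, a methyltransferase of histone H3, ran from -0.22 to 0.25, and those of kdm1a.S, a histone demethylase, lay at -0.20 and 0.15, so neither gene has 1 direction. The probe sets of smarcal1.L (-0.04 and 0.18) and smarcc2.L (-0.01 and 0.07) also straddled 0. The genes named here beyond those above were chosen after their values were seen.

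**Figure D3:**
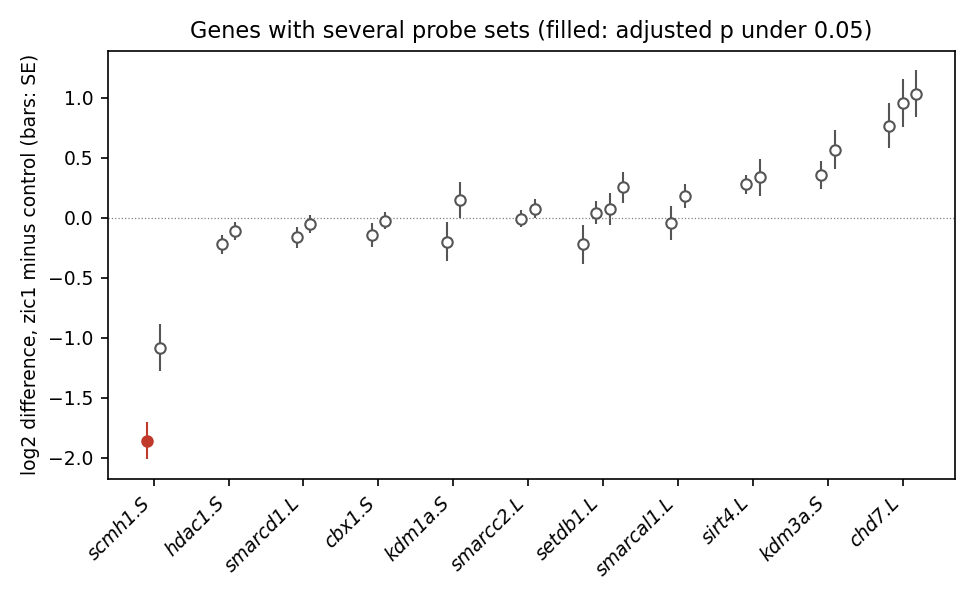
Log2 difference, zic1 minus control, with its SE (y axis) for each probe set of the 11 chromatin regulator genes with more than 1 (x axis). Filled points passed an adjusted p of 0.05, which 1 probe set of scmh1.S did at -1.86; the 3 probe sets of chd7.L lie between 0.77 and 1.03, and those of setdb1.L lie on both sides of 0.

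Both copies were measured for 9 chromatin genes, and the difference between copies was tested with limma on the .L minus .S log2 ratio of each array, over all 1017 gene pairs of the table. This comparison was added after the values were seen. Of all pairs 23 passed (2.26%), and of the 9 chromatin pairs 1 did. The scmh1.L copy had 1 probe set, and its zic1 arrays stood at 0.995 to each other, the commonest ratio of that pair over all probe sets. Such a repeated value, described below, does not show that the copy was constant. In scmh1 the .L copy exceeded the .S copy in its log2 difference by 1.40 (95% interval 0.86 to 1.94, adjusted p = 0.0374, limma). That call was lost without either zic1 array (adjusted p = 0.413 without zic1 replicate 1 and 0.156 without zic1 replicate 2) and without control replicate 1 (0.0629) or control replicate 2 (0.112).

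Pcgf2.L, hdac1.L and kmt5b.S are among the members described below as carrying little information. In pcgf2 the same gap was 0.49 (95% interval 0.10 to 0.89, adjusted p = 0.167, limma), again with the .S copy lower. It was 0.26 without zic1 replicate 1 and 0.73 without zic1 replicate 2. In kdm3a it was 0.31 (0.04 to 0.59; adjusted p = 0.193) and in dnmt1 -0.28 (-0.69 to 0.12; adjusted p = 0.393). For cbx3, eed, hdac1, kmt5a and kmt5b the gaps ran from -0.17 to 0.32 and did not pass. The widest 95% interval among these 5 was that of kmt5a, from -0.40 to 1.04.

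**Figure D4:**
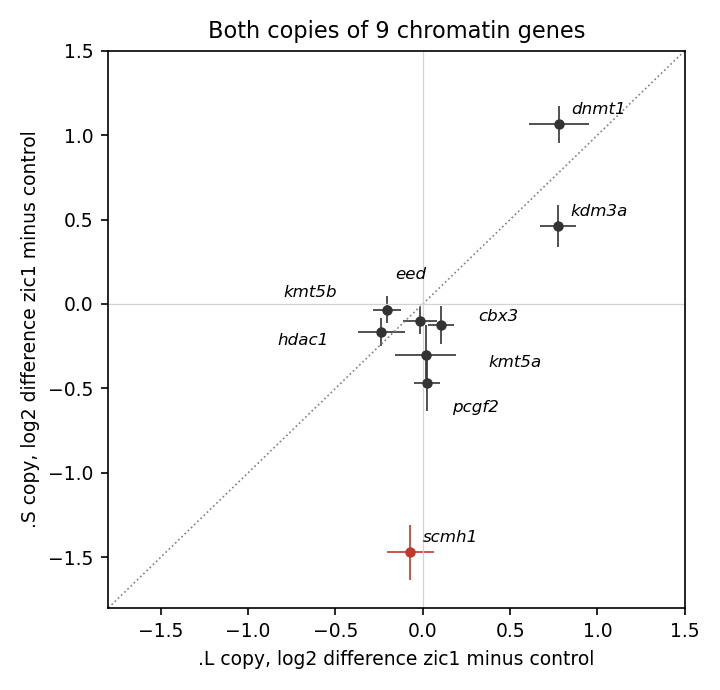
Log2 difference, zic1 minus control, of the .S copy (y axis) against the .L copy (x axis) for the 9 chromatin genes with both copies, with the SE of each; the dotted line marks equal differences. Dnmt1 and kdm3a are high in both copies, and scmh1 (red, adjusted p of the gap 0.0374) lies at -0.07 for .L and -1.47 for .S.

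Zic1 replicate 1 and control replicates 1 and 2 shared many exactly equal values, so that the commonest ratio of each pair of them was 1. They were taken as 1 set and the other 2 arrays, whose commonest ratio was 0.999, as a second, though the labels name no such sets. Pairs across the sets also had a commonest ratio, held by 486 to 993 probe sets, beside 788 to 944 within the first set. The counts of repeated values therefore do not separate the 2 sets. Within the first set and the second, scmh1.S differed by -1.64 and -1.37, dnmt1.S by 1.20 and 0.87, kdm3a.L by 0.81 and 0.79, and sirt5.L by -0.56 and -0.47. Since the groups do not overlap in these 4 genes, their sign within each set is fixed. The sign was the same in both sets in 47 of 61 members (77.0%), beside 66.2% of all genes. It is fixed likewise in every gene without overlap, 52.5% of the members and 42.1% of all genes, so these shares are no separate check. With the sets as a block in the fit scmh1.S alone passed, and the adjusted p of kdm3a.L was 0.0504, of dnmt1.S 0.0524 and of sirt5.L 0.0780 (limma). Chd7.L differed by 1.09 and 0.77, brd2.S by 0.90 and 0.52 and sirt7.L by -0.50 and -0.58, with signs again fixed by groups that do not overlap. By contrast phc2.L (0.55 and 0.04), chd4.L (0.48 and 0.05) and cbx2.L (0.30 and 0.01) differed mainly in the first set.

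Some members carried little information. In 9 of 75 member probe sets (12.0%, beside 10.7% of all) at least 3 arrays stood at the commonest ratio of their array pair, within 0.001. They were those of pcgf1.L, pcgf2.L, kmt5b.S, setd6.L, and, chosen after their values were seen, hdac1.L, setd4.L, smarcb1.S and both of smarcc2.L. Smarcb1.S, a core SWI/SNF subunit, read 1.00 and 1.00 in the zic1 arrays against 1.00, 1.00 and 1.02 in the controls. The cause of these repeated values was not tested, and such a probe set does not show that its transcript was constant.

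Other genes of chromatin, from a list of partners outside the families above, gave 43 genes and 57 probe sets. Of these 0 passed in either direction, beside 1.93% of all genes and 1.41% of all probe sets. At an unadjusted p under 0.05 (limma, gene means) 6 of the 43 were higher and 6 lower, beside 682 higher and 1029 lower of all 7530 genes. The median of the 43 was -0.06. Ncor1.S, a corepressor that recruits histone deacetylases to nuclear receptors, came nearest at 0.94 ± 0.15 (adjusted p = 0.0516, limma). Its 2 probe sets read 1.76 and 1.48 against 1.00, 0.790 and 0.757, and 2.23 and 1.51 against 1.00, 0.901 and 0.983, with both zic1 arrays above all controls in each. Chaf1a.L, of the complex that places histones on newly copied DNA, read 1.31 and 1.24 against 1.00, 0.987 and 0.971 and differed by 0.37 ± 0.08 (adjusted p = 0.0755, limma). Rybp.L, a subunit of variant Polycomb complex 1, read 1.25 and 1.21 against 0.898, 0.844 and 1.00 and differed by 0.43 ± 0.10 (adjusted p = 0.0879, limma). Of the 43 genes, 13 lay below all controls in both zic1 arrays, beside 24.8% of all genes, and 10 above, beside 17.3%. Of those above, sin3a.S differed by 0.67 ± 0.16 (adjusted p = 0.0968, limma) and prdm1.S by 0.56 ± 0.14 (adjusted p = 0.104, limma). Both, and the genes named next, which lay below, were chosen after their values were seen. Dpy30.S and rbbp5.S, of the complexes that methylate histone H3 at active genes, differed by -0.36 ± 0.09 (adjusted p = 0.0953, limma) and -0.42 ± 0.12 (adjusted p = 0.118, limma). Bmi1.S, a RING-finger subunit of Polycomb complex 1, differed by -0.21 ± 0.13 (adjusted p = 0.402, limma). Rbbp4.L, a histone-binding subunit of complex 2 and of other complexes, differed by -0.31 ± 0.15 (adjusted p = 0.278, limma).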

How the data were processed

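Total RNA (2 µg per sample) was labelled with biotin and hybridised to Affymetrix Xenopus laevis arrays. GCOS and RMA appear in the submitters' processing notes, with no version and no order of use. As deposited by the authors, each value is a linear ratio, and the median of the 5 arrays was exactly 1 in all 15490 probe sets used, a centring that was read from the values and is not given in the sources used here. Of 15572 probe sets, 81 Affymetrix controls and 1 with missing values were left out. Gene symbols came from the platform annotation; 74 of the 75 member probe sets matched the gene table by identifier, with 0 symbols changed. Precision is limited by having 5 arrays.

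The test was lmFit with eBayes on log2 ratios (limma 3.58.1, R 4.3.3; 3 residual degrees of freedom), per probe set and per gene as the mean over its probe sets, with Benjamini-Hochberg adjustment over the whole table. Errors are SE of the log2 difference. The scripts were tested on simulated data. The members, lists and tests were chosen with earlier results of these data known. Named genes were those past the threshold, all Polycomb genes, the 3 largest moderated t values of each other family, and the other copies of these genes; 3 genes of the outside list followed the same rule. Alternatives were each array left out, 2 blocks, array weights, quantile normalization, a robust prior and another threshold. The figures were made in Python 3.11.15 using matplotlib 3.10.9.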

Additional observations from a re-analysis of the deposited data

How the results depend on the processing

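The median log2 difference of the chromatin regulators stayed between 0.01 and 0.04 under all alternatives run on it. The call counts did not stay. With all arrays 219 probe sets, 3 member probe sets and 4 member genes passed. Leaving out single arrays gave counts of 0 to 207, 0 to 2 and 0 to 2, and 0 to 99 of the 219 probe sets were among those called; where 1 zic1 array was left, its spread was taken to equal that of the controls. The 2 sets of arrays as a block gave 37, 1 and 1, array weights 935 and 7 probe sets, quantile normalization 109 probe sets over the whole table, and an adjusted p under 0.10 gave 1054, 9 and 7. Replicate numbers are shared by 2 pairs of arrays, whose deviations from the group means correlated at 0.32 and 0.28, and no label says that a number marks a shared batch. The deviations of the 2 zic1 arrays are exact opposites. Zic1 replicate 1 with control replicate 2 therefore gave -0.28, and zic1 replicate 2 with control replicate 1 gave -0.32, by construction. In the replicate block control replicate 3 stood alone under its number, so the differences were those without that array. The replicate block left 1 residual degree of freedom, and under it 2692 probe sets, 14 member probe sets and 11 member genes passed. The gaps between copies of pcgf2 (0.46, adjusted p = 0.0278, limma) and dnmt1 (-0.40, adjusted p = 0.0446, limma) also passed under it.

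Over all 10 alternatives scmh1.S passed in 6, dnmt1.S in 5, kdm3a.L in 4 and sirt5.L in 2. Each of these counts includes the replicate block, which gave the same differences as leaving out control replicate 3. Scmh1.S ran from -1.71 to -1.23. Signs turned for small differences that had not passed: kmt5a.L (-0.14 with the replicate block, -0.049 with array weights, -0.015 after quantile normalization), ring1.L (0.11) and eed.L (0.020) with the replicate block. With single arrays left out, suz12 ran from -0.32 to 0.017, kmt5b.S from -0.052 to 4.35e-06, eed.L from -0.081 to 0.020, kmt5a.L from -0.14 to 0.14, ring1.L from -0.38 to 0.11, and the hdac1 gap between copies from -0.30 to 0.16. The causes were not tested.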
